A study of Homo sapiens with 3 samples.

Results

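Of the 25702 genes listed in the deposited counts, 10 genes of cysteine and glutathione metabolism are described here. They were chosen by name for their place in the pathway, but with earlier results of these data known, so the choice was not blind. All 10 passed the filter of at least 10 counts in at least 1 library, as did 12879 genes in all. CBS and CTH are the enzymes of transsulfuration. GCLC, GCLM and GSS build glutathione, CHAC1 and CHAC2 degrade it, GSR recycles its oxidised form, and GPX1 and GPX4 use it to reduce peroxides.

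The cells were of the human line Molm13, derived from acute myeloid leukemia and bearing an FLT3 internal tandem duplication, and were grown asynchronously in RPMI medium with serum. For 6 h they received either the vehicle DMSO or pyrvinium, at 50 nM or at 100 nM, and 1 library was sequenced for each of these 3 conditions. Pyrvinium pamoate is an anthelmintic drug that acts on mitochondria, and the comparison of doses with DMSO asked how transcription of the leukemia cells responds to it. The higher dose is written once in the labels without its prefix and is taken as 100 nM from the sample name. The counts summed to between 22677038 and 24075123 per library, and 15355 to 15685 genes had at least 1 count. All 10 myeloid leukemia markers examined, FLT3 and CD33 among them, had at least 116 counts in every library, and the 12 markers of T cells, B cells, erythroid cells and epithelial cells had at most 26 counts. With 1 library per condition, no difference has a replicate check. Each test therefore compares the reads of a pair of libraries, not the conditions, and each interval covers counting error only.

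Transsulfuration moves sulfur from methionine to cysteine. Homocysteine, made in the methionine cycle, is joined with serine to cystathionine by cystathionine beta-synthase (CBS), and cystathionine gamma-lyase (CTH) splits the product to release cysteine. Cysteine can also enter the cell as cystine through the exchanger whose light chain is SLC7A11. Glutathione, the most abundant small thiol of most cells, is then made in consecutive steps: glutamate-cysteine ligase couples cysteine to glutamate, and glutathione synthetase adds glycine. In leukemia cells, as in other cells, it supplies electrons to peroxidases and glutaredoxins and is regenerated at the expense of NADPH. Inside the cell, gamma-glutamylcyclotransferases of the CHAC family cleave it. CTH and CHAC1 are known targets of ATF4, the transcription factor of the integrated stress response, and GCLC and GCLM are known targets of NRF2.

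The 250 bases before the start of transcription are shown for CTH and CHAC1, which rose by at least 2-fold at both doses. They are also shown for CHAC2, the paralog of CHAC1 that did not. They come from RefSeq on GRCh38.p14, which is not the build of the counts, and are written 5′ to 3′ on the plus strand, from which all 3 genes are read. The CTH window is chr1:70411018-70411267, the CHAC1 window chr15:40953221-40953470 and the first CHAC2 window chr2:53767533-53767782. Capitals mark matches to TGATGNAA, the C/EBP-ATF response element bound by ATF4 (CARE), to TGACGT, the core of the cAMP response element (CRE), or to TGACNNNGC, the antioxidant response element bound by NRF2 (ARE), searched on both strands.
CTH: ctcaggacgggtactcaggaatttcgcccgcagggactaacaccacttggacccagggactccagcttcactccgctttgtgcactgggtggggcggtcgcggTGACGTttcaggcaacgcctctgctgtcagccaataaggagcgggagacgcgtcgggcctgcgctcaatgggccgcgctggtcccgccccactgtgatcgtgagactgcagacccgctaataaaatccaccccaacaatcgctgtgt
CHAC1: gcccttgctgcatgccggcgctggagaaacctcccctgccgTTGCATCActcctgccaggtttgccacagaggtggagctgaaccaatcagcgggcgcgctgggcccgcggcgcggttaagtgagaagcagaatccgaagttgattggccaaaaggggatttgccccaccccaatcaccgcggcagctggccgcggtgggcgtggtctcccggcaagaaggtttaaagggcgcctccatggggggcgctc
CHAC2: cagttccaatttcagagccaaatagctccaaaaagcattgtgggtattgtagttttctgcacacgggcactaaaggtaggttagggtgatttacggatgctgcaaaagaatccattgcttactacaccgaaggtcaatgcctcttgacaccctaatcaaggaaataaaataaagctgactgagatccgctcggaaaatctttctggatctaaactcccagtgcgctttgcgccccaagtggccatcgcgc

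The CHAC1 window held 1 CARE match, on the minus strand from base -209 to base -202 counted from the start site. CARE matches were present in 3.14% of all 35116 RefSeq windows of this length. The CTH window held 1 CRE match, from base -147 to base -142, against 7.10% of all windows, and the shown CHAC2 window held none of these letters. Windows were available for 8 of the 10 genes, 13 windows in all. Beyond those shown, a CRE match was found in GPX4, in 2 of its 3 windows. An ARE match, present in 10.9% of all windows, was found in the GCLM window, from base -34 to base -26, and in 1 of the 3 CBS windows. GCLC, GPX1 and the second CHAC2 window held no match. No match overlapped a match to another motif. A match is a description of the letters only, and the motifs were chosen with the sequences in view. The shares over all windows therefore do not gauge how unusual a match is.

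The levels of the 10 genes spanned a wide range before treatment. They are given as RPKM, the counts divided by the counted exon length in kilobases and by the TMM-scaled library size, so that genes of different length can be set side by side. In the DMSO library, the cytosolic peroxidase gene GPX1 was highest at an RPKM of 294 (95% Poisson interval 288 to 301), above 98.3% of the tested genes. CHAC1 was lowest at 2.43 (1.95 to 3.0), above 25.5% of them. The order in DMSO was GPX1, GPX4, GSR, GSS, CHAC2, CBS, GCLC, GCLM, CTH and CHAC1, and the intervals of CHAC2 and CBS, and of GCLM and CTH, overlapped.

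CTH and CHAC1, the lowest of this order, moved up in it with pyrvinium. At 100 nM, CTH stood at 17.8 (16.7 to 19.0) on the same scale, above CHAC2 and GCLC, after 4.86 (4.26 to 5.51) in DMSO and 12.2 (11.2 to 13.2) at 50 nM. CHAC1 stood at 10.2 (9.16 to 11.2) at 100 nM, and GCLM became the lowest of the 10 genes at 5.05 (4.55 to 5.58). GPX1 and GPX4 were the highest and the next highest in each library. At 50 nM the intervals of the neighbours GSS and GSR, CHAC2 and GCLC, GCLC and CTH, and GCLM and CHAC1 overlapped, and at 100 nM those of CHAC2 and GCLC alone.

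Against DMSO, CTH and CHAC1 rose by at least 2-fold at both doses, and the other 8 genes stayed below 2-fold. A gene was called where the exact binomial test on the counts of both libraries, Benjamini-Hochberg adjusted over the 12879 genes, gave an adjusted p of at most 0.05 and the fold was at least 2. At 100 nM, 2 of the 10 genes were called higher and 0 lower, beside 1.72% of all tested genes called higher and 61 of the 12879 called lower. At 50 nM those called higher were again CTH and CHAC1, beside 0.699% of all tested genes. None of the 10 was called lower there, beside 33 of the 12879. Below 2-fold, the counts of CBS (exact binomial test, adjusted p = 4.33e-30), GPX1 (7.35e-22), GSS (3.13e-06), GPX4 (0.00811) and GCLC (0.0358) also differed between the 100 nM and DMSO libraries, and those of CHAC2, GCLM and GSR were past 0.05. Between 100 nM and 50 nM, 0 of the 10 genes were called in either direction. Of the 12879 tested genes, 26 were called higher there (0.202%) and 38 lower. The exact binomial test alone, at an unadjusted p of at most 0.05, is what an interval that excludes a log2 fold change of 0 stands for. These intervals are not adjusted for the number of genes. By such intervals, 55.5% of genes averaging 50 counts or more differed between the 100 nM and DMSO libraries. Differences below 2-fold between these libraries are therefore common at this depth.

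By those intervals, 6 of the 10 genes were above 0 at 100 nM against DMSO (24% of all tested genes) and 4 below 0 (25.3%). Against DMSO at 50 nM, 5 were above 0 (18.6%) and 1 was below 0 (18.5%). Between the doses, 4 were higher at 100 nM (12.5%) and 1 was lower (14.3%). These shares depend on depth. For the 10834 genes that averaged 50 counts or more, as all 10 genes here do, 55.5% had an interval off 0 at 100 nM against DMSO, compared with 16.7% of the 2045 genes below that mean. The median log2 fold change of the 10 genes was 0.18 at 100 nM and 0.14 at 50 nM, beside -0.00235 and 0.000711 over all tested genes.

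Both transsulfuration genes were higher with pyrvinium, CTH by more. CTH (Entrez 1491, 12 exon blocks at chr1:70876901-70905534 on the plus strand in hg19) had 241 counts in DMSO, 591 at 50 nM and 919 at 100 nM. CBS, the enzyme before it (Entrez 875, 18 exon blocks at chr21:44473301-44496472, minus strand), had 982, 1231 and 1629 counts in the same order. Each count was higher than the one at the dose below it.

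CTH rose 2.51-fold at 50 nM, a log2 fold change of 1.33 (95% interval 1.11 to 1.55; exact binomial test, adjusted p = 1.78e-34). At 100 nM it rose 3.66-fold, or 1.87 (1.67 to 2.08; exact binomial test, adjusted p = 9.47e-86). Between the doses CTH differed by 0.55 (0.39 to 0.70) on the log2 scale, below 2-fold. CBS had a log2 fold change of 0.36 (0.24 to 0.48) at 50 nM and of 0.67 (0.56 to 0.79) at 100 nM, which is 1.59-fold and did not reach the 2-fold threshold. The intervals of CTH and CBS against DMSO did not overlap at either dose.

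The balance between the pair needs no scaling of the libraries. Shares of counts, here and below, are not corrected for exon length and are compared between libraries only. CTH made up 19.7% (95% Clopper-Pearson interval 17.5 to 22.05) of the counts of CTH and CBS together in DMSO, 32.4% (30.3 to 34.6) at 50 nM and 36.1% (34.2 to 38.0) at 100 nM. The DMSO interval lay apart from both others, and the intervals of the 2 doses overlapped.

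Of CHAC1 and CHAC2, both of which cleave the gamma-glutamyl bond of glutathione inside the cell, only CHAC1 was called. CHAC1 (Entrez 79094, chr15:41245636-41248717, plus strand) had 88 counts in DMSO, 219 at 50 nM and 382 at 100 nM. CHAC2 (Entrez 494143, chr2:53994929-54002287, plus strand) had 500, 428 and 449 counts. CHAC1 had more counts at each dose than in DMSO, and CHAC2 had fewer.

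CHAC1 rose 2.54-fold at 50 nM, a log2 fold change of 1.34 (95% interval 0.99 to 1.72; exact binomial test, adjusted p = 3.36e-13). At 100 nM it rose 4.15-fold, or 2.05 (1.72 to 2.41; exact binomial test, adjusted p = 1.71e-40), the largest fold of the 10 genes. It also had the fewest counts of the 10 in DMSO and therefore the widest intervals. The difference between the doses was 0.71 (0.47 to 0.96), or 1.64-fold. CHAC2 had log2 fold changes of -0.19 (-0.38 to -0.00090) at 50 nM and -0.21 (-0.40 to -0.025) at 100 nM. At 50 nM the adjusted p of the exact binomial test was past 0.05 for CHAC2. After adjustment, CHAC2 was past 0.05 at 100 nM (exact binomial test, adjusted p = 0.0580).

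CHAC1 supplied 14.97% (12.2 to 18.1) of the counts of the CHAC pair in DMSO, 33.8% (30.2 to 37.6) at 50 nM and 46.0% (42.5 to 49.4) at 100 nM. None of these 3 intervals overlapped. In RPKM, CHAC2 still stood above CHAC1 at 100 nM, at 14.6 (13.3 to 16.02) against 10.2 (9.16 to 11.2).

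None of the 3 genes of glutathione synthesis was called at either dose. GCLC, the catalytic subunit of glutamate-cysteine ligase (Entrez 2729, chr6:53362139-53409831, minus strand), had 1022 counts in DMSO, 1115 at 50 nM and 1181 at 100 nM. GCLM, its modifier subunit (Entrez 2730, chr1:94352590-94375012, minus strand), had 422, 451 and 374. GSS, glutathione synthetase (Entrez 2937, chr20:33516236-33543601, minus strand), had 1355, 1512 and 1693. GSS was higher at each dose, and GCLM was lowest at 100 nM.

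GSS had a log2 fold change of 0.19 (0.086 to 0.30) at 50 nM and 0.26 (0.16 to 0.37) at 100 nM. GCLC was at 0.16 (0.036 to 0.28) and 0.15 (0.030 to 0.27), with a difference between them of -0.0084 (-0.13 to 0.11). GCLM was at 0.13 (-0.065 to 0.33) at 50 nM, where the interval holds 0, and at -0.23 (-0.44 to -0.027) at 100 nM. The 100 nM value of GCLM was past 0.05 after adjustment (exact binomial test, adjusted p = 0.0590). Between the doses GCLM differed by -0.36 (-0.56 to -0.16; exact binomial test, adjusted p = 0.00417), the only one of the 10 genes with an interval below 0 in that comparison.

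The catalytic subunit accounted for 70.8% (68.4 to 73.1) of the counts of the ligase pair in DMSO, 71.2% (68.9 to 73.4) at 50 nM and 75.9% (73.7 to 78.1) at 100 nM. The 100 nM interval lay above both others. CHAC1, which was called, and GCLC, which was not, can be set side by side in the same way. CHAC1 made up 7.93% (6.41 to 9.68) of the counts of CHAC1 and GCLC together in DMSO, 16.4% (14.5 to 18.5) at 50 nM and 24.4% (22.3 to 26.6) at 100 nM, with no overlap among the 3 intervals. This share is of that pair and not of breakdown and synthesis as a whole. It is a share of counts, not corrected for the counted exon length, 1560 bases for CHAC1 and 3717 for GCLC. Per length, CHAC1 stood at an RPKM of 2.43 and GCLC at 11.9 in DMSO, and at 10.2 and 13.2 at 100 nM. A sum of the counts of both CHAC genes, GCLC, GCLM and GSS was chosen after the pair shares were seen, also without correction for length. CHAC1 and CHAC2 together made up 17.4% (16.1 to 18.7) of it in DMSO, 17.4% (16.2 to 18.6) at 50 nM and 20.4% (19.1 to 21.6) at 100 nM. The 100 nM interval lay above both others, and DMSO and 50 nM overlapped almost fully.

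None of the 3 genes of recycling and use was called at either dose. GSR, glutathione reductase (Entrez 2936, chr8:30536435-30585443, minus strand), had 1844 counts in DMSO, 1735 at 50 nM and 1783 at 100 nM. GPX1 (Entrez 2876, chr3:49394609-49395791, minus strand, counted as 1 exon block of 1183 bases) had 8067, 8120 and 9744. GPX4, which reduces lipid peroxides in membranes (Entrez 2879, chr19:1103936-1106787, plus strand), had 2524, 2341 and 2410. GPX1 had its highest count at 100 nM, and GSR and GPX4 had theirs in DMSO.

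GPX1 had a log2 fold change of 0.22 (0.17 to 0.26) at 100 nM and of 0.044 (-0.00086 to 0.088) at 50 nM. It differed by 0.17 (0.13 to 0.21) between the doses. GPX4 was at -0.074 (-0.16 to 0.0074) at 50 nM and -0.12 (-0.20 to -0.043) at 100 nM. GSR was at -0.054 (-0.15 to 0.042) and -0.11 (-0.20 to -0.011), and its 100 nM value was past 0.05 after adjustment (exact binomial test, adjusted p = 0.0641). The GPX1 share of the counts of both peroxidases was 76.2% (75.3 to 77.0) in DMSO, 77.6% (76.8 to 78.4) at 50 nM and 80.2% (79.5 to 80.9) at 100 nM, and the 100 nM interval lay above both others.

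The comparisons of 50 nM and of 100 nM with DMSO use the same DMSO library, so a high or low count there moves both fold changes of a gene together. The exons of none of the 10 genes overlap those of another gene. How reads that align equally well to a near-identical copy were counted is not given in the sources used here.

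The genes around this pathway were described with 12 lists of 109 genes, and 82 of these genes had enough counts for the test. Higher calls numbered 3 of the 82 at 100 nM (1.72% of all tested genes) and 0 at 50 nM (0.699%). Lower calls were 0 at each dose, beside 61 of all tested genes at 100 nM and 33 at 50 nM. By the intervals, 24 of the 82 were above 0 (24% of all tested genes) and 31 below 0 (25.3%) at 100 nM, with a median log2 fold change of -0.031. At 50 nM, 26 were above 0 (18.6% of all tested genes) and 15 below 0 (18.5%), with a median of 0.046.

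Of the cystine and cysteine transporters, 5 of 8 were tested and 1 was called higher at 100 nM (1.72% of all tested genes). At each dose 4 had intervals above 0. The share of all tested genes with such an interval was 24% at 100 nM and 18.6% at 50 nM. SLC7A11, the light chain of the cystine-glutamate exchanger, had 783 counts in DMSO, 1517 at 50 nM and 2234 at 100 nM. It stood at a log2 fold change of 0.99 (0.86 to 1.11) at 50 nM, just under the threshold, and 1.45 (1.34 to 1.57) at 100 nM. SLC3A2, the heavy chain of the same exchanger, was at 0.55 (0.50 to 0.60) and 0.70 (0.65 to 0.74). SLC7A11 shares 276 exon bases with SLC7A11-AS1 on the opposite strand, and that gene had 0 counts in all 3 libraries. At 100 nM the list had a median of 0.64.

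Upstream of homocysteine, 0 of 8 tested genes of the methionine cycle were called, and the median was 0.13. At 100 nM, 4 of the 8 intervals lay above 0 (24% of all tested genes) and 2 below 0 (25.3%). MTR, methionine synthase, which turns homocysteine back into methionine, was at 0.35 (0.28 to 0.42) at 100 nM. AHCYL1, a homolog of the hydrolase that forms homocysteine, was at 0.27 (0.20 to 0.35). MAT1A and BHMT2 were at 0 counts in all 3 libraries, and BHMT had at most 2.

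Of the genes of cysteine and sulfide oxidation, 1 of 8 tested was called higher at 100 nM (1.72% of all tested genes). At that dose 3 of the 8 intervals lay above 0 (24% of all tested genes), 1 lay below 0 (25.3%) and 4 held 0. CSAD, the decarboxylase of the taurine branch, had 65 counts in DMSO, 91 at 50 nM and 144 at 100 nM. It rose at 100 nM by a log2 fold change of 1.08 (0.66 to 1.54; exact binomial test, adjusted p = 1.45e-06) and was at 0.52 (0.045 to 1.0) at 50 nM. GOT1, an aspartate aminotransferase, was at 0.40 (0.29 to 0.51) at 100 nM. CDO1, the dioxygenase that feeds the same branch, had at most 1 count in a library.

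Among the glutathione S-transferases, 11 of 18 were tested and 1 was called higher at 100 nM (1.72% of all tested genes). GSTZ1, a maleylacetoacetate isomerase of tyrosine breakdown, had 184 counts in DMSO, 310 at 50 nM and 397 at 100 nM. It rose at 100 nM by 1.05 (0.80 to 1.31; exact binomial test, adjusted p = 6.21e-16) and was at 0.79 (0.52 to 1.06) at 50 nM. The median of the list was 0.037, with 2 intervals above 0 (24% of all tested genes) and 4 below 0 (25.3%). GSTCD, which carries a transferase-like domain, was at 0.28 (0.16 to 0.40). The GSTM genes are near-identical copies in part, and their counts are uncertain.

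Some lists lay mostly below 0 at 100 nM, without a call. Beside them, 25.3% of all tested genes had an interval below 0. Of genes averaging 50 counts or more, 55.5% had an interval off 0 in either direction, so small shifts are included. The glutaredoxins had 3 of 4 intervals below 0 and a median of -0.27, with GLRX5 at -0.42 (-0.52 to -0.33) and GLRX at -0.38 (-0.56 to -0.20). The genes listed for glutathione transport had 5 of 6 intervals below 0 and a median of -0.24. SLC25A10, the mitochondrial dicarboxylate carrier, had the lowest value there, -0.54 (-0.67 to -0.40), and ABCC1, an exporter of glutathione conjugates, was at -0.25 (-0.41 to -0.084).

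The thioredoxins and peroxiredoxins had 8 of 11 intervals below 0 (25.3% of all tested genes), 1 above 0 (24%) and a median of -0.12. SRXN1, sulfiredoxin, which restores overoxidised peroxiredoxins, was at -0.32 (-0.44 to -0.20). PRDX4, the peroxiredoxin of the endoplasmic reticulum, was at -0.29 (-0.38 to -0.21). Of the glyoxalases and other users of glutathione, 3 of 4 intervals lay below 0. GLO1, which clears methylglyoxal with glutathione, had 8314, 7166 and 6440 counts in order of dose and was at -0.43 (-0.47 to -0.38), and HAGH, the enzyme after it, was at 0.36 (0.10 to 0.61).

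No gene was called in the remaining lists. Among all tested genes, 24% had an interval above 0 at 100 nM and 25.3% below 0. The supply of NADPH, which GSR consumes, had 5 of 11 intervals above 0, 2 below 0 and a median of 0.20, with PGLS of the pentose phosphate pathway at 0.39 (0.28 to 0.50) and the mitochondrial kinase NADK2 at 0.36 (0.26 to 0.46). Selenoprotein synthesis, on which GPX1 and GPX4 depend for their selenocysteine, had 3 of 6 intervals above 0, 1 below 0 and a median of 0.13, with SEPSECS at 0.41 (0.28 to 0.55) and SECISBP2 at 0.21 (0.11 to 0.31).

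In the gamma-glutamyl cycle and peptide breakdown, 7 of 11 genes were tested, 1 interval lay above 0 and 1 below 0. CNDP2, a dipeptidase that splits cysteinyl-glycine, was at 0.36 (0.27 to 0.45) and GGT7 at 0.14 (-0.073 to 0.34), and the median of the list was 0.098. Of the 6 other glutathione peroxidases, GPX7 alone passed the filter, with 426 counts in DMSO and 365 at 100 nM and a log2 fold change of -0.28 (-0.49 to -0.075). GPX2, GPX5, GPX6 and GPX8 were at 0 counts in all 3 libraries, and GPX3 had at most 1. At these depths a count of 0 allows up to 3 counts, or 1.25e-05 to 1.32e-05% of a library.

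The genes whose response to both doses was most like that of CTH and of CHAC1 were found by the Euclidean distance between their pairs of log2 fold changes against DMSO, over 3 libraries and among 10833 genes that averaged 50 counts or more. The distance to CTH was smallest for SERPINI1 (0.14), LINC00886 (0.14), ADM2 (0.14), ZMAT1 (0.14) and HSF2BP (0.18). For CHAC1 it was smallest for SERPINI1 (0.070), NLRP12 (0.12), CTH (0.18), ADM2 (0.22) and ZMAT1 (0.24). SERPINI1, ADM2 and ZMAT1 stood on both lists. These distances are small beside the counting error, since the 100 nM interval of SERPINI1 ran from 1.45 to 2.64, so the order among the named genes is not resolved. SERPINI1 had 31, 75 and 131 counts in order of dose, ADM2 had 63, 141 and 246, and ZMAT1 had 321, 713 and 1227. Among genes of that mean, CHAC1 ranked 4 and CTH 9 from the highest fold at 100 nM, and CBS ranked 267.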

How the data were processed

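RNA of Molm13 cells was extracted with a column kit after 6 h with DMSO, 50 nM or 100 nM pyrvinium, and stranded paired-end mRNA libraries were sequenced, 1 per condition. Rsubread was used by the authors for alignment to hg19, and the deposited values are raw whole-number counts per Entrez gene. Whether the counting used strand is not given in the sources used here. A deposited table of the authors' EBSeq comparisons (fold changes and posterior probabilities) was not used.

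Of 25702 genes, 23696 were given a symbol. Library sizes were scaled with TMM (edgeR 4.0.16, R 4.3.3), and 12879 genes reaching 10 counts in 1 or more libraries were tested. For each gene, the split of its counts between both libraries was set against the scaled library sizes by an exact binomial test (two-sided, scipy 1.17.1) with Benjamini-Hochberg adjustment. Calls needed 2-fold or more and an adjusted p not above 0.05. Log2 fold changes had 0.5 counts added, and intervals are 95% Clopper-Pearson or Poisson intervals. The procedure was also run on simulated libraries that held counting error only, as the test itself assumes. That run therefore cannot speak to spread between cultures.

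The 10 genes, the 12 lists and the tests were chosen with earlier results of these data known, and the promoter motifs with the sequences in view. Beside the 10 genes, the text names every list gene called, the 2 largest changes per list and the 5 nearest genes to CTH and to CHAC1, each with a mean of at least 50 counts unless called. List genes at or near 0 counts, SLC7A11-AS1 and the markers were named outside that rule, after their values were seen. Alternatives were DESeq2 1.42.0 size factors, other scalings, filters, thresholds and tests.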

Additional observations from a re-analysis of the deposited data

How the results depend on the processing

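All 120 recomputed log2 fold changes of the 10 genes kept their direction and call under 3 other scalings (DESeq2 size factors, total counts, TMM without mitochondrial genes) and with 5 counts added. The largest shift was 0.00499 by scaling and 0.0547 by counts added. CTH and CHAC1 were called at both doses under these scalings and under both other count filters. A minimum of 50 counts moved the genes called from 283 to 146 at 100 nM, from 123 to 45 at 50 nM and from 64 to 14 between the doses. A 1.5-fold threshold gave 864, 332 and 143, added CBS at 100 nM and called 1 of the 10 genes, CHAC1, between the doses. With edgeR's exact test and an assumed coefficient of variation of 0.1, 138, 27 and 15 genes were called. With 0.2, 12, 0 and 4 were called (257, 120 and 90 at an unadjusted p), CTH and CHAC1 at 100 nM among them, and 0 of the 10 genes at 50 nM. With 0.4, edgeR called 0, 0 and 0 genes (46, 18 and 27 unadjusted) and 0 of the 10 genes at either dose. These fits were built to assume more spread, and the true spread between cultures is unknown. A quasi-likelihood dose trend over the 3 libraries called 183 genes, CTH and CHAC1 among them. The spread in that trend fit came from departures of the 3 libraries from a straight dose line, not from replicate cultures. No paired analysis was possible because each condition has 1 library, and no replicate could be left out.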
